A study of Mus musculus with 14 samples.

Results

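The genes described here are 10 markers of cortical inhibitory interneurons: Gad1, Gad2, Pvalb, Sst, Npy, Vip, Cck, Calb2, Tac1 and Crh. They were chosen by symbol, as the rows of the deposited count table whose gene name equals one of these 10, and all 10 were found among its 23412 rows. Counts came from the cerebral cortex of mice, measured by RNA-seq of total RNA and by ribosome profiling, which sequences the mRNA fragments that ribosomes shield from nuclease (footprints). All mice of both groups carried Rpl22flox/flox;CamKCre+. The control mice carried these alleles alone, and the knock-out (KO) mice carried Fmr1X-Y in addition, a mutation of the gene for the RNA-binding protein FMRP. RNA libraries came from 4 control mice (numbers 1, 3, 6 and 8) and 4 KO mice (2, 4, 5 and 7). Footprint libraries came from 3 control mice (1, 3 and 9) and 3 KO mice (2, 4 and 10). The ages of the mice are not given in the sources used here, and there was no treatment in the labels. CamK-driven Cre acts in excitatory forebrain neurons, so the floxed Rpl22 allele does not mark interneurons. The labels' protocols name no pull-down of tagged ribosomes, so both assays read the whole tissue lysate. The comparison asked how the transcripts and their translation differ between cortex with and without Fmr1.

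Cortical interneurons make the transmitter GABA from glutamate with a pair of enzymes, GAD67 (Gad1) and GAD65 (Gad2), and load it into vesicles with the transporter encoded by Slc32a1. They fall into classes told apart by calcium-binding proteins and neuropeptides: fast-spiking basket and chandelier cells with parvalbumin, dendrite-targeting Martinotti cells with somatostatin, and cells with vasoactive intestinal peptide, calretinin or cholecystokinin. Neuropeptides are made as precursors, cut and amidated on the way into dense core vesicles, and act on G-protein-coupled receptors. Several of these genes are not restricted to cortical interneurons: Cck is also made by cortical pyramidal cells, Tac1 by striatal projection neurons and Crh by hypothalamic neurons.

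Values below are counts scaled to TMM-adjusted library sizes (CPM). Tests are edgeR quasi-likelihood tests, and "called" means an adjusted p under 0.05 over all genes tested. An RNA library held 8847547 to 11371851 counts and a footprint library 4124065 to 6033030. Fmr1 itself was at 71.4 to 90.0 CPM in control RNA and 18.1 to 23.4 CPM in KO RNA, and at 111 to 115 CPM against 5.84 to 8.56 CPM in footprints, so the KO libraries were the low ones in each assay. Libraries were not equally far apart. The RNA of KO mice 2, 4 and 7 was close to sampling noise (1.18 to 1.32 for the chi-square statistic of a pair divided by its degrees of freedom), KO mouse 5 stood apart from them (5.64 to 6.02), and among controls mouse 8 stood farthest off (4.03 to 11.8). Footprint pairs of one genotype lay between 1.15 and 1.42. Nothing in the labels says how the tissue was divided, so p-values measure the spread between these libraries, which may in part be technical. In whole tissue, fewer cells of a type and less RNA per cell cannot be told apart.

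In RNA, the genes of GABA synthesis showed no called difference, and the 2 called genes among the 10 were both lower in KO cortex: Pvalb and Calb2, each at about 79% of control. In footprints, 6 genes were higher in KO cortex (Pvalb, Sst, Npy, Vip, Cck and Tac1) and 2 were lower (Gad2 and Calb2). Pvalb therefore had less RNA and more footprints, and it alone of the 10 was called for a change in translational efficiency (TE), the footprint level relative to RNA. The called count of 2 of 10 in RNA stands beside 7.51% of all 13507 genes tested (3.58% called higher and 3.94% called lower). In footprints 8 of 10 stand beside 25.7% of 12158 genes (12.0% higher and 13.7% lower). In TE 1 of 10 stands beside 7.44% of 12145 genes (3.22% higher and 4.22% lower). The 10 genes had a median log2 fold change of -0.05 in RNA (all genes tested -0.001), of 0.29 in footprints (all genes 0.006) and of 0.26 in TE (all genes -0.011).

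**Figure D1:**
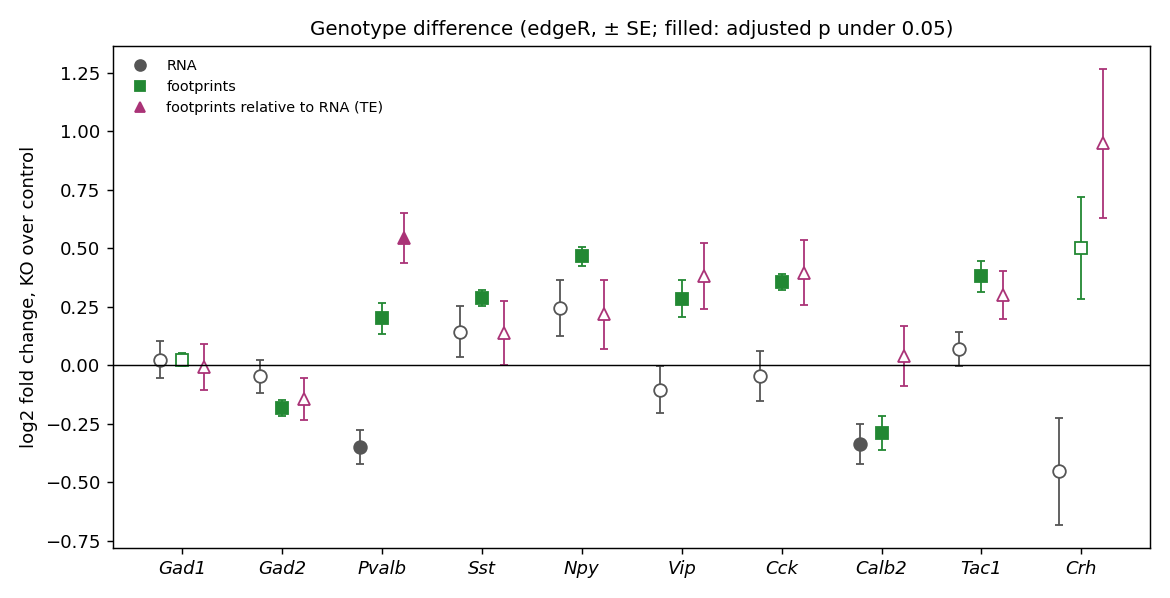
Log2 fold change of KO over control for each gene (y axis) in RNA (circles, 4 against 4 libraries), footprints (squares, 3 against 3) and TE (triangles, 14 libraries), with the standard error as bars and filled symbols for an adjusted p under 0.05. The RNA symbol of Pvalb lies below 0 at -0.35 while its footprint and TE symbols lie above at 0.20 and 0.54, and Calb2 lies below 0 in both RNA and footprints.

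Gad1, the enzyme behind most cortical GABA, had 335, 319, 323 and 311 CPM in the RNA of control mice 1, 3, 6 and 8, and 313, 292, 396 and 309 CPM in KO mice 2, 4, 5 and 7. KO mouse 5 was the highest of the 8, and the other KO mice lay within or below the control range. The log2 fold change was 0.02 ± 0.080 (SE, edgeR adjusted p = 0.892). Its footprints were at 539, 518 and 532 CPM in control mice 1, 3 and 9 and at 539, 543 and 532 CPM in KO mice 2, 4 and 10. The groups overlapped, and the difference of 0.02 ± 0.029 was not called (SE, edgeR adjusted p = 0.597).

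Gad2, the enzyme form tied to synaptic terminals, had 233, 244, 228 and 207 CPM in control RNA (mice 1, 3, 6, 8) and 207, 212, 251 and 212 CPM in KO RNA (mice 2, 4, 5, 7). Mouse 5 again stood above the other KO mice, and the groups overlapped, with a log2 fold change of -0.05 ± 0.070 (SE, edgeR adjusted p = 0.731). Footprints of Gad2 did not overlap between genotypes: 416, 401 and 397 CPM in control mice 1, 3 and 9 and 354.5, 365 and 347 CPM in KO mice 2, 4 and 10. They fell by 0.18 ± 0.033 on the log2 scale (SE, edgeR adjusted p = 4.49e-06), to 87.9% of control. Among the mice with both libraries (1 to 4), the RNA of Gad2 was lower in KO as well (-0.18 ± 0.045 SE, edgeR adjusted p = 0.00407), while in mice 5 to 8 it was 0.09 ± 0.10 (SE, edgeR adjusted p = 0.775).

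Pvalb encodes parvalbumin, the calcium buffer of fast-spiking interneurons. Its RNA was at 47.8, 41.8, 42.8 and 44.5 CPM in control mice 1, 3, 6 and 8 and at 33.7, 32.0, 37.1 and 36.2 CPM in KO mice 2, 4, 5 and 7, from 319 to 474 counts per library. All 4 KO libraries lay below all 4 controls. The fall was 0.35 ± 0.074 on the log2 scale (SE, edgeR adjusted p = 0.0120), from 44.2 ± 2.61 to 34.8 ± 2.33 CPM (SD, n = 4 each). That call was lost without KO mouse 2 (edgeR adjusted p = 0.0510) or KO mouse 4 (0.0571), where the change was -0.34 and -0.31.

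Footprints of Pvalb went the other way. They were at 76.6, 74.5 and 75.7 CPM in control mice 1, 3 and 9 and at 94.1, 78.1 and 88.2 CPM in KO mice 2, 4 and 10. The groups did not overlap, although KO mouse 4 lay close to the controls. The rise was 0.20 ± 0.067 on the log2 scale (SE, edgeR adjusted p = 0.0179). It was no longer called without mouse 2 (0.14, edgeR adjusted p = 0.177), mouse 3 (adjusted p = 0.0676) or mouse 10 (0.0733), or with DESeq2 (adjusted p = 0.111).

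Calb2 encodes calretinin, a calcium-binding protein of bipolar interneurons that is also abundant in some thalamic neurons. Its RNA was at 33.6, 35.9, 28.1 and 30.7 CPM in control mice 1, 3, 6 and 8 and at 24.1, 25.5, 25.7 and 26.4 CPM in KO mice 2, 4, 5 and 7. No KO library reached the lowest control, mouse 6. The fall of 0.34 ± 0.085 on the log2 scale (SE, edgeR adjusted p = 0.0279) was lost without mouse 1, 2, 3, 4 or 7, one at a time, with adjusted p between 0.0660 and 0.0976 in edgeR.

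In footprints, Calb2 was at 74.3, 78.4 and 76.9 CPM in control mice 1, 3 and 9 and at 54.4, 60.8 and 72.0 CPM in KO mice 2, 4 and 10. The KO libraries were spread more widely than the controls and all lay below them. The fall was 0.29 ± 0.074 (log2, SE, edgeR adjusted p = 0.00137), or -0.20 with an adjusted p of 0.0545 (edgeR) without KO mouse 2. RNA and footprints of Calb2 thus moved by like amounts, and its TE difference was 0.04 ± 0.13 (log2, SE, edgeR adjusted p = 0.896). In footprints, 9 of the 10 genes did not overlap between genotypes, all but Gad1, beside 37.3% of all genes tested. In RNA, Pvalb and Calb2 were the 2 of 10 that did not, beside 15.1% of all genes.

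**Figure D2:**
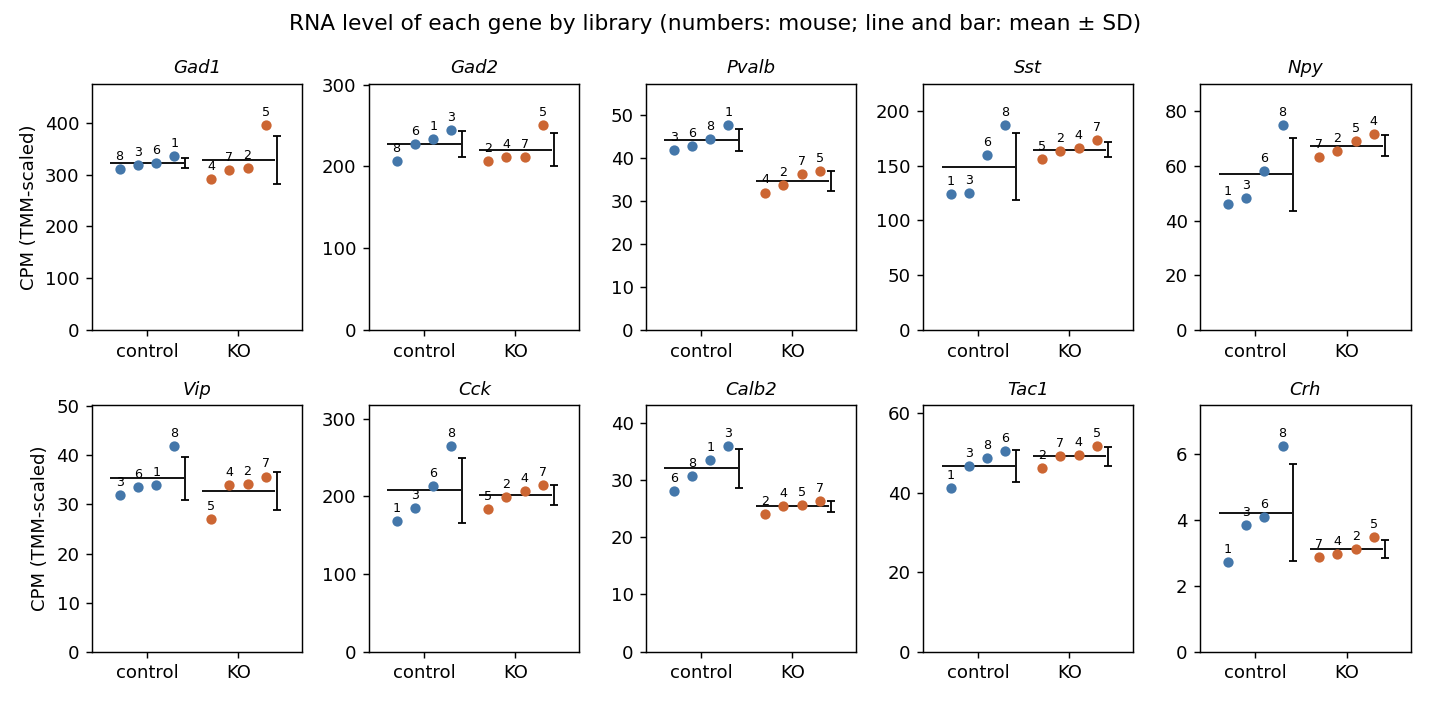
RNA level of each of the 10 genes (y axis, TMM-scaled CPM from 0) in every control (blue) and KO (orange) library, numbered by mouse, with the mean as a line and the SD as a bar (n = 4 each). Pvalb and Calb2 are the genes whose groups do not overlap; control mouse 8 is the highest of all 8 libraries for Sst, Npy, Vip, Cck and Crh.

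Of the 6 peptide genes, 5 rose in footprints, by 0.28 to 0.47 on the log2 scale. In RNA 0 of the 6 were called by edgeR or DESeq2, and 0 had an unadjusted p under 0.05 in edgeR. Promoters of several of them are known for a cyclic AMP response element (CRE), the element that the factor CREB binds, and the stretches of the peptide genes that hold its letters are shown. RefSeq windows on GRCm38.p6, from 250 bases before to 50 bases after each gene's start, were available for 8 of the 10 genes, all but Calb2 and Crh. They were 9 windows, since Pvalb has a pair of start sites. The letters TGACG (the core of the CRE, searched on both strands) were in 5 of the 9 windows, those of Gad2, Sst, Vip, Cck and Tac1, and in 20.8% of all 32851 windows. The full CRE, TGACGTCA, which holds the CRE core on both strands, was in the window of Sst alone among the 9, and in 1.79% of all windows. Each line below gives 41 bases of the coding strand, 5′ to 3′, with the match in capitals. CGTCA is the CRE core read from the opposite strand.

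Sst, chr16:23890870-23890910, minus strand, CRE beginning 48 bases before the start: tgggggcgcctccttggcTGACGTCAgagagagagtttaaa
Vip, chr10:5639121-5639161, plus strand, CRE core 79 bases before the start: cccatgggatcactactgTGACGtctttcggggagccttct
Cck, chr9:121495719-121495759, minus strand, CRE core 47 bases before the start: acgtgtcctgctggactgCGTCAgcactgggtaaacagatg
Tac1, chr6:7555000-7555040, plus strand, CRE core 43 bases before the start: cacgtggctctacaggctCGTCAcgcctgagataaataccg
Tac1, chr6:7554846-7554886, plus strand, CRE core 197 bases before the start: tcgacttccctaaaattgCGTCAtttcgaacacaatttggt

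These matches describe the letters and are not shown to be bound sites. The windows of Npy, Pvalb and Gad1 did not hold the CRE core. Of the genes with the core, Sst, Vip, Cck and Tac1 rose in footprints and Gad2 fell. Of those without it, Npy and Pvalb rose and Gad1 was not called. Whether the core bears on these differences was not tested. None of the 9 windows held an AP-1 site (TGANTCA, both strands, in 7.81% of all windows). A TATA match (TATAAA, both strands, in 13.6% of all windows) was in the windows of Vip, at 30 bases before the start among other places, and of Gad1.

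Sst encodes somatostatin, the peptide of dendrite-targeting interneurons and the gene above with the full CRE. Its RNA was at 124, 125, 159.7 and 187 CPM in control mice 1, 3, 6 and 8 and at 164, 166, 156 and 173 CPM in KO mice 2, 4, 5 and 7. The KO libraries lay close together inside the wide range of the controls. The log2 fold change was 0.14 ± 0.11 (SE, edgeR adjusted p = 0.456). Footprints were at 335, 344 and 361 CPM in control mice 1, 3 and 9 and at 396, 429.6 and 445 CPM in KO mice 2, 4 and 10. They rose in all 3 KO libraries, by 0.29 ± 0.035 on the log2 scale (SE, edgeR adjusted p = 3.1e-11).

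Npy encodes neuropeptide Y, made by part of the somatostatin cells and by neurogliaform cells. In RNA it was at 46.2, 48.1, 58.2 and 75.1 CPM in control mice 1, 3, 6 and 8 and at 65.5, 71.6, 69.2 and 63.1 CPM in KO mice 2, 4, 5 and 7. Control mouse 8 alone lay above the KO mice. The log2 fold change was 0.24 ± 0.12 (SE, edgeR adjusted p = 0.243). Its footprints were at 174, 179.8 and 193 CPM in control mice 1, 3 and 9 and at 253, 261 and 243 CPM in KO mice 2, 4 and 10. The gap between the groups was wider than the range of each, and the rise of 0.47 ± 0.043 (log2, SE, edgeR adjusted p = 2.24e-16) took Npy to 139% of control.

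Vip encodes vasoactive intestinal peptide, which marks interneurons that inhibit other interneurons. Its RNA was at 33.9, 32.0, 33.5 and 41.8 CPM in control mice 1, 3, 6 and 8 and at 34.2, 34.0, 27.1 and 35.7 CPM in KO mice 2, 4, 5 and 7. The groups overlapped (log2 fold change -0.10 ± 0.10 SE, edgeR adjusted p = 0.579). Footprints were at 49.2, 47.1 and 49.9 CPM in control mice 1, 3 and 9 and at 57.3, 62.4 and 58.2 CPM in KO mice 2, 4 and 10, a rise of 0.28 ± 0.080 (log2, SE, edgeR adjusted p = 0.00387).

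Cck encodes cholecystokinin, a peptide of one class of basket cells and of pyramidal cells. Its RNA ran from 168, 184.5 and 213.5 to 264 CPM in control mice 1, 3, 6 and 8 and was 199, 206.5, 184 and 215 CPM in KO mice 2, 4, 5 and 7. The KO values fell within the control range (log2 fold change -0.05 ± 0.11 SE, edgeR adjusted p = 0.841). Its footprints were at 347, 340.5 and 372 CPM in control mice 1, 3 and 9 and at 434, 467 and 457 CPM in KO mice 2, 4 and 10. They rose by 0.36 ± 0.034 (log2, SE, edgeR adjusted p = 8.35e-16), to 128% of control.

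Tac1 encodes the precursor of substance P and neurokinin A. In RNA it was at 41.2, 46.7, 50.4 and 48.8 CPM in control mice 1, 3, 6 and 8 and at 46.1, 49.5, 51.6 and 49.2 CPM in KO mice 2, 4, 5 and 7, with overlap (0.07 ± 0.073 SE, edgeR adjusted p = 0.610). Footprints were at 70.5, 66.0 and 66.1 CPM in control mice 1, 3 and 9 and at 85.8, 85.1 and 91.3 CPM in KO mice 2, 4 and 10. The rise was 0.38 ± 0.067 (log2, SE, edgeR adjusted p = 3e-06), to 129% of control.

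Crh encodes corticotropin-releasing hormone and was sparse, with 27 to 64 RNA counts and 21 to 39 footprint counts per library. Its RNA was at 2.72, 3.84, 4.10 and 6.24 CPM in control mice 1, 3, 6 and 8 and at 3.13, 2.96, 3.49 and 2.87 CPM in KO mice 2, 4, 5 and 7. The difference of -0.45 ± 0.23 was not called (log2, SE, edgeR adjusted p = 0.252). The groups overlapped, and all KO values lay within the control range. In footprints it was at 4.97, 6.63 and 5.51 CPM in control mice 1, 3 and 9 and at 8.56, 8.31 and 7.77 CPM in KO mice 2, 4 and 10. These values did not overlap, yet the difference of 0.50 ± 0.22 was not called (log2, SE, edgeR adjusted p = 0.0813).

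**Figure D3:**
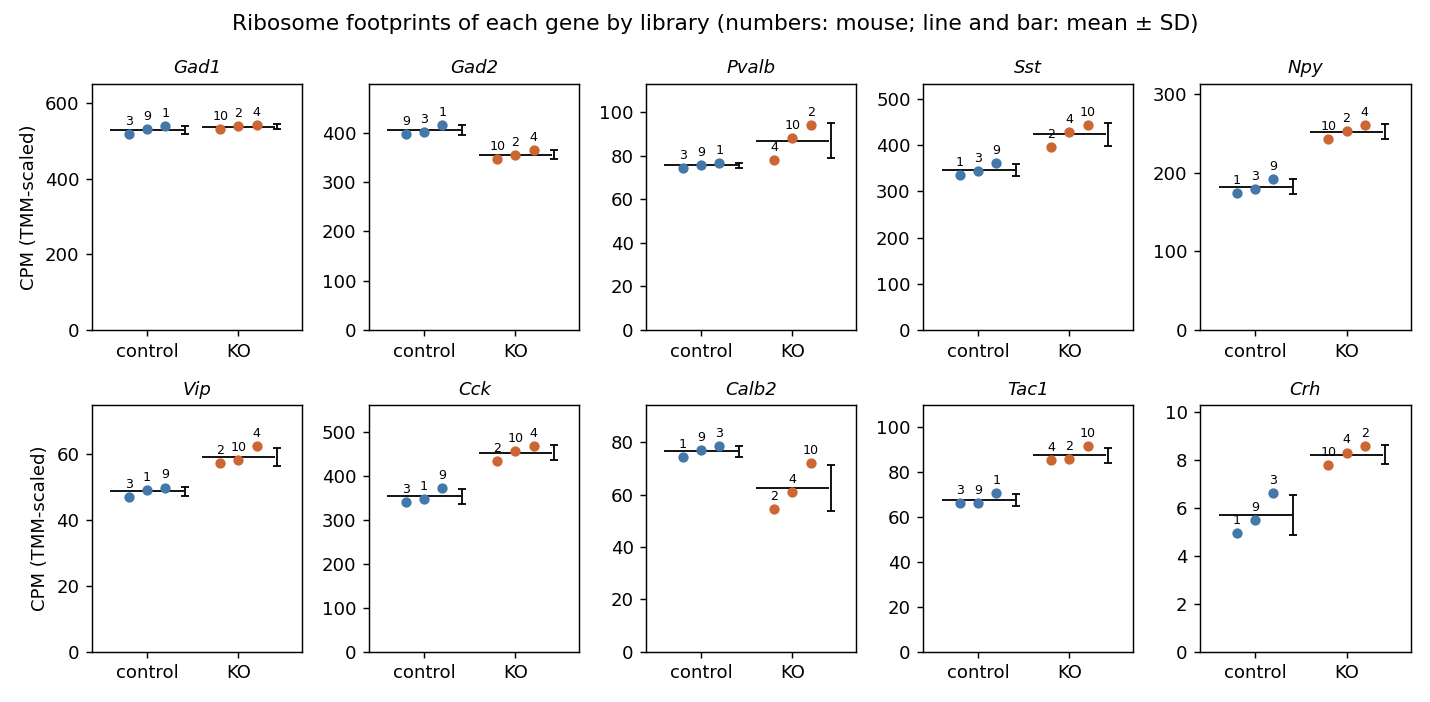
Footprint level of each of the 10 genes (y axis, TMM-scaled CPM from 0) in every control (blue) and KO (orange) library, numbered by mouse, with the mean as a line and the SD as a bar (n = 3 each). The groups overlap for Gad1 alone; Npy is at 174 to 193 CPM in control and 243 to 261 CPM in KO mice, and Gad2 and Calb2 are lower in KO mice.

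The footprint differences were tested against a small spread: the common biological coefficient of variation was 0.0211 in footprints and 0.0770 in RNA. When one edgeR fit over all 14 libraries gave both assays a shared spread, 4 of the 10 genes stayed called in footprints (Npy, Cck, Calb2 and Tac1), beside 12.6% of all genes. On plain library sizes, 66.3% of all called footprint changes were rises, against 46.8% with TMM, the median over all genes was 0.066 against 0.006, and Gad1 (0.08) and Crh (0.56) were called higher too. The directions of the 8 called genes were the same on both scales.

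The RNA result depended on which mice were compared. Mice 1 to 4, whose libraries carry 2 title prefixes with a control and a KO mouse each, are the mice that also gave footprints. Among them 6 of the 10 genes were called in RNA, beside 24.2% of all genes tested (3284): Sst (0.41 ± 0.050 SE, edgeR adjusted p = 1.25e-06), Npy (0.55 ± 0.073, 4.09e-06) and Cck (0.21 ± 0.050, 0.00292) were higher, and Gad2, Pvalb and Calb2 were lower. Among mice 5 to 8, whose libraries share the third prefix, none was called by edgeR (3 had an unadjusted p under 0.05, Pvalb, Cck and Crh, each lower), and of all genes tested 57 (0.423%) were called there. There Sst was at -0.08 ± 0.10, Npy at -0.02 ± 0.12, Pvalb at -0.25 ± 0.12 and Calb2 at -0.18 ± 0.13 (log2, SE). In mice 1 to 4, RNA and footprints of Sst, Npy, Cck, Gad2 and Calb2 shared their direction. The p-values of mice 1 to 4 rest on pairs of closely alike RNA libraries. The chi-square statistic divided by its degrees of freedom was 1.32 for KO mice 2 and 4 and 1.99 for control mice 1 and 3. It was 5.64 for KO mice 5 and 7 and 4.03 for control mice 6 and 8. Whether the genotype difference itself differs between these sets of mice was not tested.

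Single libraries carried part of this. Without control mouse 8, Sst (0.28, edgeR adjusted p = 0.0283) and Npy (0.41, adjusted p = 0.00398) were also called higher in RNA, making 4 of 10, beside 13.2% of all genes. Without the RNA of both mouse 8 and KO mouse 5, a choice made after seeing the data, 5 were called (Gad2, Pvalb, Sst, Npy and Calb2), beside 22.6% of all genes. Markers of vessels and choroid plexus moved with these libraries. Choroid plexus genes summed to 955 CPM in control mouse 8 and 685 CPM in KO mouse 5, and to 512.5 to 584 CPM in the other RNA libraries. Most of each sum was Enpp2, at 522 to 675 CPM in control RNA and 502 to 567 CPM in KO RNA. Ttr in the same list varied far more, from 3.01 to 263 CPM in control RNA and from 0.349 to 104 CPM in KO RNA. Endothelial genes summed to 105 CPM in mouse 8, 122 CPM in mouse 5 and 144.5 CPM in mouse 6, and to 188 to 201 CPM in the others. Their part in the members' results was not tested. When the RNA of the near-identical KO mice 2, 4 and 7 was summed to 1 library and that of control mice 1 and 3 to another, none of the 10 was called by edgeR (2 had an unadjusted p under 0.05), beside 0.263% of all genes, with Pvalb at -0.32 ± 0.10 (SE, adjusted p = 0.230) and Calb2 at -0.30 ± 0.12 (SE, adjusted p = 0.342).

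**Figure D4:**
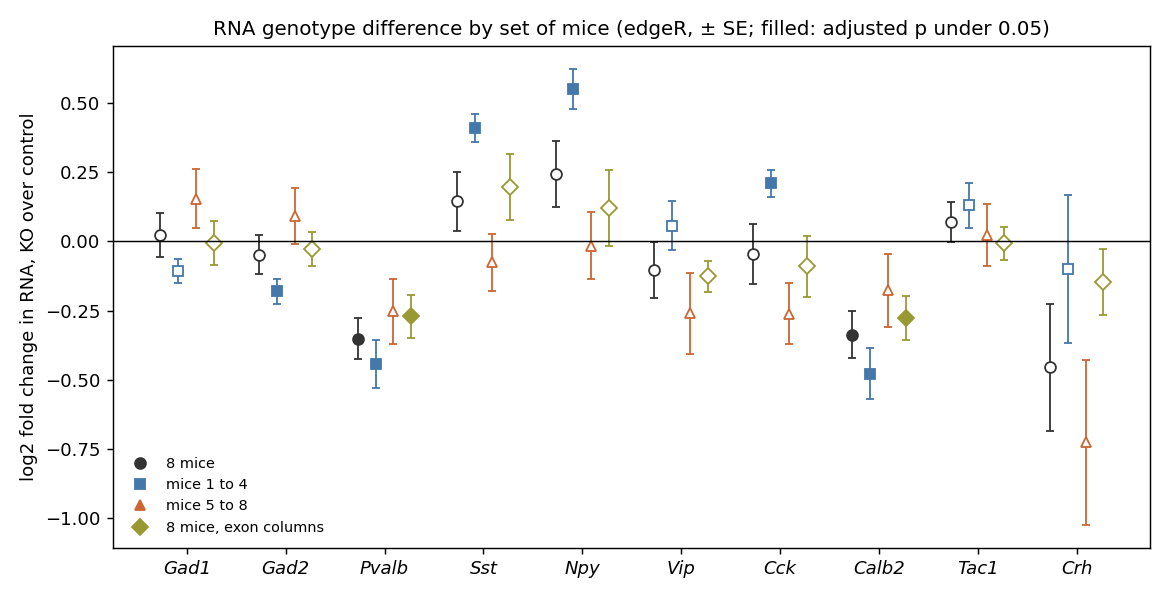
Log2 fold change in RNA, KO over control (y axis), with all 8 mice, mice 1 to 4, mice 5 to 8, and all 8 mice in the exon columns, with the standard error as bars and filled symbols for an adjusted p under 0.05. Sst and Npy lie at 0.41 and 0.55 in mice 1 to 4 and at -0.08 and -0.02 in mice 5 to 8, while Pvalb and Calb2 lie below 0 in all 4 settings.

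Relative to RNA, the footprints of Pvalb rose by 0.54 ± 0.11 on the log2 scale (TE, SE, edgeR adjusted p = 0.00263), a ratio 1.46 times that of control. Footprint CPM divided by RNA CPM was 1.60 and 1.78 in control mice 1 and 3 and 2.79 and 2.44 in KO mice 2 and 4. Both KO mice lay above both controls. Pvalb was called in each of the 20 alternative settings run for TE, with changes of 0.47 to 0.62 and adjusted p between 1.26e-05 and 0.0348. These settings included mice 1 to 4 alone, the exon columns and the near-identical RNA libraries summed.

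No other gene of the 10 was called for TE, although Cck (0.39 ± 0.14 SE, edgeR adjusted p = 0.0852), Vip (0.38 ± 0.14, 0.105), Tac1 (0.30 ± 0.10, 0.0780) and Crh (0.95 ± 0.32, 0.0729) had estimates above 0. With the mouse as a block, which pairs the assays of mice 1 to 4, Pvalb and Cck (0.18 ± 0.067 SE, edgeR adjusted p = 0.0491) were called, 2 of 10, and 1831 of all genes (15.1%) were called in place of 904. Without mouse 1, Cck (0.47, edgeR adjusted p = 0.0454) and Tac1 were called too. Tac1 was also called without mouse 5, without the RNA of both mice 5 and 8, in the exon columns and on plain library sizes, and Vip in the exon columns (0.42, edgeR adjusted p = 0.00809). On plain library sizes, 67.9% of all TE calls were rises, against 43.3% with TMM. TE of Sst and Npy was 0.14 ± 0.14 and 0.22 ± 0.15 with 8 RNA libraries (SE, adjusted p = 0.604 and 0.417, edgeR). Among mice 1 to 4 alone these became -0.14 and -0.02, neither of them called.

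**Figure D5:**
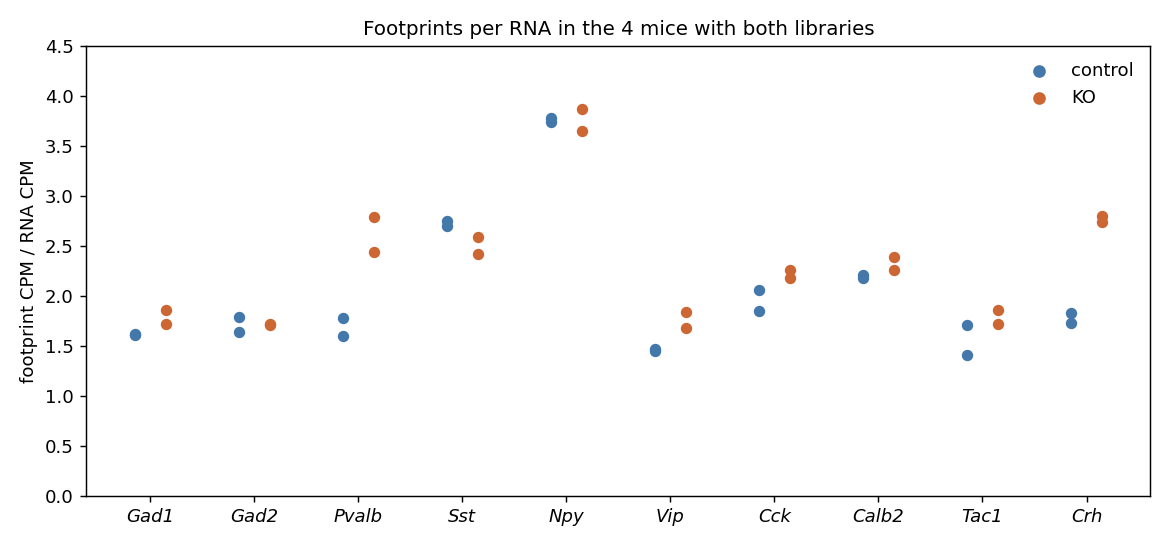
Footprint CPM divided by RNA CPM (y axis, from 0) for each gene in the 4 mice with both libraries, control mice 1 and 3 (blue) and KO mice 2 and 4 (orange). Pvalb is at 1.60 and 1.78 in control and 2.79 and 2.44 in KO mice, and Gad2, at 1.64 and 1.79 against 1.71 and 1.72, overlaps.

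In control cortex, footprint CPM per RNA CPM was above the median of all genes (0.913) for each of the 10, from 1.35 for Crh to 3.20 for Npy. Npy stood at the 98.5th percentile of 12145 genes, Calb2 at the 96.1st (2.39) and Sst at the 95.7th (2.33). Which part of each gene was counted is not given in the sources used here, so these ratios may also reflect the regions counted. The RNA columns used here held 52.9% to 56.7% of the total of the exon columns that were deposited beside them, and for single members from 23.9% (Crh) to 78.3% (Calb2). In the exon columns Pvalb and Calb2 were again the 2 genes called in RNA, though the groups overlapped for both. Gad1, Cck and Crh each overlap a long noncoding RNA gene in RefSeq, and the strand setting of the counting is not given, so reads of the overlapping parts cannot be told apart.

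Among the other genes of GABA handling (6 tested), Slc32a1, the vesicular GABA transporter, had the largest called rise. Its RNA was at 52.1, 53.6, 60.8 and 57.1 CPM in control mice 1, 3, 6 and 8 and at 76.6, 83.2, 89.3 and 81.8 CPM in KO mice 2, 4, 5 and 7. All KO libraries lay above all controls, and the rise was 0.56 ± 0.069 (log2, SE, edgeR adjusted p = 0.00036), to 148% of control. Its footprints were at 254, 241 and 254 CPM in control mice 1, 3 and 9 and at 256, 246 and 242 CPM in KO mice 2, 4 and 10, with a difference of -0.01 ± 0.039 (log2, SE, edgeR adjusted p = 0.905). TE of Slc32a1 accordingly fell by 0.58 ± 0.085 (log2, SE, edgeR adjusted p = 0.000187). The RNA rise was called in each of 18 alternatives (0.38 to 0.61), mice 5 to 8 alone and the summed libraries included. The TE fall was called in each of 20 (-0.64 to -0.38), the summed libraries included. Slc32a1 overlaps the noncoding gene Gm14204, which had 160 to 228 counts in the exon columns.

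Also called in RNA in that list were Slc6a11, a GABA transporter of astrocytes (0.30 ± 0.070 SE, edgeR adjusted p = 0.0192), and Slc6a13, a GABA transporter of the meninges (-0.65 ± 0.12, 0.00478). The RNA call of Slc6a11 was lost in 4 of 18 alternatives, among them leaving out mouse 2, and that of Slc6a13 in 2. In all, 2 of 6 rose and 1 fell in RNA (median 0.02), and none rose and 3 fell in footprints (median -0.09). Among these were Slc6a13 and Aldh5a1, an enzyme of GABA breakdown (-0.27 ± 0.061 SE, edgeR adjusted p = 0.000263). The footprint call of Slc6a13 was lost in 7 of 12 alternatives (edgeR or DESeq2 adjusted p up to 0.128), among them leaving out mouse 2, 3, 4 or 10, and that of Aldh5a1 in none of 12.

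Of 15 transcription factors of interneurons tested in footprints (Nkx2-1 was too low), 2 fell, where 25.7% of all genes were called in either direction: Nr2f2, a factor of caudally derived interneurons (-0.71 ± 0.14 SE, edgeR adjusted p = 3.15e-05), and Maf (-0.36 ± 0.11, 0.00787). The Maf call was lost with DESeq2 (adjusted p = 0.0596), and that of Nr2f2 in none of 12 alternatives. The list's median was 0.03 in RNA and -0.01 in footprints.

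Of 25 further interneuron markers, 1 was called in RNA, Reln, the extracellular protein of layer 1 and neurogliaform cells, which fell by 0.31 ± 0.074 (log2, SE, edgeR adjusted p = 0.0203). That call was lost without mouse 1, 2, 4 or 7 (adjusted p up to 0.541 over its 18 alternatives). In footprints 3 rose and 7 fell, beside 12.0% of all genes called higher and 13.7% called lower. The rises included Id2 (0.38 ± 0.053 SE, edgeR adjusted p = 6.57e-09) and the enkephalin precursor Penk (0.31 ± 0.028, 1.41e-16), and the falls included the growth factor Igf1 (-0.84 ± 0.21, 0.0013) and the receptor Npy2r (-0.78 ± 0.18, 0.000537). The Id2 call was lost in one fit over all 14 libraries (edgeR adjusted p = 0.0715). Those of Penk, Igf1 and Npy2r were lost in none of 12 alternatives. The medians were -0.09 in RNA and -0.07 in footprints, on the other side of 0 from the footprint median of the 10 genes.

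Receptors of the members' peptides were called at about the share of all genes, 7.51% in RNA and 25.7% in footprints. Of 12 tested in RNA 1 rose, the cholecystokinin receptor Cckbr (0.26 ± 0.074 SE, edgeR adjusted p = 0.0466), a call lost in 12 of 18 alternatives. Of 11 tested in footprints 1 rose and 2 fell. The Y1 receptor Npy1r rose (0.36 ± 0.10 SE, edgeR adjusted p = 0.00488) while the Y2 receptor Npy2r fell, as did the substance P receptor Tacr1 (-0.59 ± 0.22, 0.0320). The call of Tacr1 was lost in 7 of 12 alternatives, among them leaving out mouse 2, 3, 4, 9 or 10, and that of Npy1r in 2, among them leaving out mouse 4. Sstr5, Cckar and Crhr2 were too low to test in both assays.

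The machinery that processes and stores peptides held more falls than rises among its called genes. Of all genes tested, 3.58% were called higher and 3.94% lower in RNA, and 12.0% and 13.7% in footprints. Of the 13 genes tested in this list, none rose and 5 fell in RNA (median -0.16), among them chromogranin A (Chga, -0.35 ± 0.063 SE, edgeR adjusted p = 0.00503) and the amidating enzyme Pam (-0.27 ± 0.060, 0.0153), whose call was lost without mouse 2, 4, 6 or 7. The RNA calls of Chga and Pam were both lost with the summed libraries and among mice 5 to 8. In footprints 2 rose and 7 fell (median -0.12). Secretogranin 3 (Scg3) rose by 0.36 ± 0.027 (log2, SE, edgeR adjusted p = 8.52e-21) and carboxypeptidase E (Cpe) by 0.16 ± 0.017 (8.56e-13), whereas Chga (-0.34 ± 0.035, 4.37e-14) and chromogranin B (Chgb, -0.33 ± 0.023, 3.46e-23) fell. The footprint call of Cpe was lost in one fit over all 14 libraries (edgeR adjusted p = 0.148). Those of Scg3, Chga and Chgb were lost in none of 12 alternatives. In TE edgeR called 0 of the 13 (4 had an unadjusted p under 0.05, and DESeq2 called 1). It also called 0 of the 11 receptors (3 at an unadjusted p under 0.05), 0 of the 15 transcription factors (2) and 0 of the 25 further markers (4), and DESeq2 called none in these 3 lists.

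Immediate early genes, which neurons switch on with activity, had medians above the difference of each of the 10 genes. In RNA 11 of 12 rose and in footprints 12 of 12, with medians of 1.38 and 2.01, for example Fosb by 2.01 ± 0.24 in RNA (SE, edgeR adjusted p = 0.000356) and Fos by 2.84 ± 0.065 in footprints (2.23e-60). Their summed level was 301 to 609 CPM in control RNA and 537 to 1205 CPM in KO RNA, and 732 to 771 CPM against 2570 to 2624 CPM in footprints. The overlap in RNA came from control mouse 8, at 609 CPM beside 301 to 306 CPM in the other controls, and from KO mouse 5, at 537 CPM beside 1161 to 1205 CPM in the other KO mice. The RNA calls of Sst and Npy turned on control mouse 8 too. Sst, Npy, Vip, Cck and Tac1 rose beside them in footprints, and the part of these genes in those results was not tested.

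Markers of tissue next to the cortex were checked beside the members, since several members are made there too. Hypothalamic genes were lower in KO mice: of 9 tested, none rose and 5 fell in RNA and 1 rose and 7 fell in footprints, with orexin (Hcrt) at -3.47 ± 0.37 (log2, SE, edgeR adjusted p = 0.000317) and Pmch at -3.13 ± 0.34 (0.000317) in RNA. Their summed level was 63.3 to 97.2 CPM in control and 34.3 to 41.0 CPM in KO RNA, and 159 to 169.6 against 77.5 to 84.0 CPM in footprints. Hcrt was at 0 counts in at least 1 RNA library, and Agrp and Ghrh were too low to test. In RNA, the falls of these genes go in the same direction as those of Pvalb and Calb2. In footprints, their falls share the direction of Gad2 and Calb2 and are opposite to Pvalb and the peptide genes that rose. The part of the hypothalamic genes in either result was not tested.

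Striatal markers overlapped between genotypes in sum. Of 9 tested, none was called in RNA by edgeR (2 had an unadjusted p under 0.05, both higher) or by DESeq2, and 4 rose and 1 fell in footprints, with Ppp1r1b at -0.14 ± 0.034 (SE, edgeR adjusted p = 0.000538). Summed, they were at 728 to 806.5 CPM in control and 801 to 816 CPM in KO RNA, and at 876 to 901 against 872 to 923 CPM in footprints, in which Tac1, a striatal gene too, rose. Markers of thalamic and other subcortical excitatory neurons fell in 1 of 7 genes in each assay. The RNA call, Zic1, was lost in 8 of 18 alternatives, among them leaving out mouse 1, 2, 4, 6 or 7. The footprint call, Prkcd (-0.86 ± 0.15 SE, edgeR adjusted p = 2.09e-06), was lost in 0 of 12. The list summed to 143 to 148 CPM in control RNA and 128 to 139 CPM in KO RNA, without overlap. The sum was lower although 4 of the 7 genes had estimates above 0 (median 0.03), and in footprints the sums overlapped (169 to 179.8 against 147 to 170.0 CPM). Their part in the result of Calb2 was not tested.

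Cortical excitatory neuron markers, led in level by Slc17a7, were higher in KO RNA in sum, at 2874 to 3137 CPM in controls and 3534 to 3815 CPM in KO mice, without overlap. Of the 12 genes 3 rose in RNA (median 0.14), 1 of them (Foxp2) a call lost in 8 of 18 alternatives, and 4 rose and 3 fell in footprints, where the sums overlapped (5862 to 6013 against 5645 to 5935 CPM). Cck is made by pyramidal cells too, and the part of these cells in its result was not tested. Camk2a, whose regulatory sequence gives the Cre driver its name, rose in RNA (0.75 ± 0.099 SE, edgeR adjusted p = 0.00074) and fell in TE (-0.90 ± 0.12, 7.19e-05), the same pair of directions as Slc32a1. In RNA 2 of 6 astrocyte genes (Gfap and Aqp4) and 1 of 7 microglial genes (C1qb) were called, each lower in KO mice, beside 7.51% of all genes called. These 3 calls were lost with the summed libraries and among mice 5 to 8. In footprints 1 astrocyte gene rose (Slc1a2, 0.06, lost in 4 of 12 alternatives, among them leaving out mouse 3, 9 or 10) and 2 fell (Gfap, -0.34, and Gja1, -0.28), and C1qb fell (-0.48). Of 5 endothelial and 4 choroid plexus genes tested, neither edgeR nor DESeq2 called any in RNA, and none had an unadjusted p under 0.05 in edgeR. In footprints edgeR called the endothelial genes Slco1a4 (0.35 ± 0.086 SE, adjusted p = 0.000761) and Cldn5 (-0.40 ± 0.080, 3.97e-05) and, of the choroid plexus genes, Ttr (-1.75 ± 0.41, 0.000451). In one fit over all 14 libraries none of these 3 was called (edgeR adjusted p up to 0.864), and DESeq2 gave no adjusted p for Ttr.

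Across the 8 RNA libraries, with each genotype's mean removed, the genes whose level ran closest to a member's were mostly not interneuron genes. Sst ran closest with Rpl10a (Pearson r = 0.996) and Dlgap3 (0.995), Npy with Otub1 (0.988) and Adrbk1 (0.982), and Cck with Cdipt (0.996) and Mrpl10 (0.995). Gad1 ran closest with Tbc1d15 (0.994), Gad2 with Cct2 (0.996) and Pvalb with Klhdc10 (0.972). These values describe 8 libraries in which control mouse 8 and KO mouse 5 lie far from the rest, and each is the highest among all genes whose RNA averaged 1 CPM or more.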

How the data were processed

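The deposited data are a single table of unnormalized read counts per gene, in whole numbers, with footprint columns and a pair of columns per RNA library, one of them marked exon. Per the labels' protocols, monosomes came from a sucrose gradient after RNase I digestion, and RNA was depleted of ribosomal RNA and made into strand-specific libraries. Bowtie2, STAR 2.5, featureCounts and Subread 1.4.6 and the builds mm9 and mm10 are named, per the submitters' processing notes, without their roles. The counted region and the strand setting are not given in the sources used here. RNA columns without the exon mark were used, because 2849 rows have values in the exon columns only. In 27 rows a gene name had become a date. These stayed in the tests.

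RNA (4 against 4 libraries) and footprints (3 against 3) were tested with edgeR 4.0.16 (R 4.3.3), quasi-likelihood F test, TMM factors, filterByExpr at a minimum count of 10, two-sided, with Benjamini-Hochberg adjustment over all genes kept. TE was the interaction of genotype and assay over 14 libraries. Standard errors were derived from the F statistic. Alternatives included DESeq2 1.42.0, and the tests were checked on simulated data. Members and gene lists were chosen with earlier results of these data known. All members are named. Other genes named come from the up to 2 largest rises and 2 largest falls among the called genes of a list that averaged 1 CPM or more, or have the highest level in a list of another cell type. Gm14204 was named after its values were seen. Some genes that meet this rule are not reported here.

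Mice 1 to 4 gave both assays, per the labels, so the mouse pairs them. Over 8923 genes, the deviations of a mouse from its group means correlated between the assays at 0.00396, 0.0149, 0.0464 and -0.00498 (mice 1 to 4).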

Additional observations from a re-analysis of the deposited data

Results flagged for a closer look

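Gad2 RNA in KO mouse 5 was at 251 CPM, far from the other KO libraries, which lay between 207 and 212 CPM. Its gap to the nearest was 0.889 of the range of the group, above the 95% critical value of Dixon's test for 4 samples. It was the 1 such case among 20 groups examined (10 genes in 2 genotypes, RNA only), and about 1 in 20 is expected by chance.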

How the results depend on the processing

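Counts of called genes changed as follows. Leaving out 1 mouse at a time gave 0 to 4 of the 10 genes and 372 to 1791 of all genes called in RNA (2 and 1015 with all mice), and 1 to 3 of 10 and 376 to 1229 of all in TE (1 and 904). With near-identical RNA libraries summed, RNA calls were 0 of 10 and 36 in all, and TE calls 512 in all. With mice 5 to 8, RNA calls were 0 and 57. With mice 1 to 4, they were 6 and 3284 in RNA, and 1779 of all genes in TE. Without the RNA of mice 5 and 8, they were 5 and 3065 in RNA, and 2 and 2004 in TE. In footprints, DESeq2 called 1821 genes in place of 3123, and one fit over all libraries called 4 of 10 and 1530. TE calls among the 10 were 2 on plain library sizes (8.18% of all genes), 3 in the exon columns (7.36%) and 2 with the mouse number as a replicate block (15.1%, 1831 genes). Of the genes called in TE, 778 were shared between the fits with and without the block.

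Log2 differences that were not called with all libraries turned direction as follows. Over the fits with 1 mouse left out, RNA ranged from -0.076 to 0.076 for Gad1 and from -0.132 to 0.096 for Cck, and TE from -0.064 to 0.098 for Gad1 and from -0.078 to 0.103 for Calb2. In the exon columns, RNA Gad1 was -0.006 and Tac1 -0.007, and TE was 0.041 for Gad1 and -0.003 for Calb2. Summed libraries gave Gad2 0.037 in RNA. Mice 5 to 8 gave Gad2 0.092, Sst -0.076 and Npy -0.016. Mice 1 to 4 gave RNA values of -0.107 (Gad1), 0.057 (Vip) and 0.209 (Cck), and TE values of 0.136 (Gad1), -0.136 (Sst) and -0.021 (Npy). Without the RNA of mice 5 and 8, RNA was -0.092 (Gad1), 0.067 (Vip) and 0.136 (Cck), and TE 0.105 (Gad1) and -0.026 (Sst). The replicate block gave TE of 0.137 (Gad1), -0.132 (Sst) and -0.014 (Npy), and plain library sizes 0.061 (Gad1). The cause was not tested. Counts of Crh, at most 64 per library, limit what can be seen for it.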
